A study of Rattus norvegicus with 6 samples.

Results

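The HOX genes are described here in cultured rat dermal fibroblasts, the collagen-producing cells of the skin. A probe counted as a member when its RefSeq accession, without version, led to a symbol made of Hox, a cluster letter from a to d and a number from 1 to 13. This took 22 probes for 20 genes, out of 15168 gene symbols reached by the array in the same way. The current rat annotation (GRCr8) lists 39 such genes, and the other 19 were not analysed here, since no probe led to them by accession.

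HOX genes encode transcription factors that bind DNA through a homeodomain. They lie in 4 clusters, and the order of the genes along a cluster mirrors the order of the body regions in which they are used, low numbers towards the head and high numbers towards the tail and the tips of the limbs. Fibroblasts keep much of this pattern in culture, so that the set of active HOX genes is known as a record of the body site the cells came from. HOX proteins bind many of their sites together with TALE homeodomain partners (PBX, MEIS and PKNOX), and the clusters are held silent by Polycomb and active by Trithorax complexes.

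Both groups carried a lentivirus, with a multiplicity of infection of 10, and received puromycin at 2 µg/mL, which kills cells without the resistance gene; the protocol gives 48 h. The control group (n = 3) had a control lentivirus, and the knockdown group (n = 3) one whose shRNA, a hairpin that directs cleavage of a matching transcript, targets lnc-URIDS, a long non-coding RNA. Each sample was labelled with Cy3 and hybridised to 1 one-colour Agilent array. The labels name no rat strain, age or body site and give no word on whether replicates came from separate cultures; p-values then reflect only the spread among these 6 arrays, possibly technical. No probe carries the name lnc-URIDS, so the knockdown itself was not checked here.

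Between 20898 and 22489 of 30367 probes were well above background on each array, and none was saturated. Of 11 fibroblast markers 9 were well above background on all 6 arrays, among them Col1a1, Pdgfra and Thy1; Dcn and Lum were not well above background on any. Of the markers of other cells, the 4 adipocyte markers with a probe, Pecam1 (endothelium), Ptprc (leukocytes), Myod1 (muscle) and Cdh1 (epithelium) were on no array well above background. Other members of these lists were, on all 6 arrays: Krt5, Krt14 and Tp63 (3 of 5 keratinocyte markers with a probe), Cdh5 and Kdr (2 of 4, endothelial), Cd68, Csf1r and Cd14 (3 of 5, macrophage), Myog, Des and Ckm (3 of 5, muscle) and 4 of 4 melanocyte and Schwann cell markers. The linear signals summed over the tested markers of each cell type overlapped between the groups in all 6 lists with such a marker (fibroblast: 468.9 to 517.4 in controls against 491.1 to 500.6 in knockdown, in units of the array's 75th percentile). Such a sum follows its brightest probes: the mean log2 signal in controls was 6.97 for Col1a1 and 1.41 for Pdgfra. Overlap of the sums therefore says little about the dimmer markers. Single markers of the fibroblast list did differ in mean: 3 of the 9 were higher and 6 lower in knockdown, 0 passed, and 2 had an unadjusted p under 0.05, beside 14.2% of all features tested. These were Pdgfra at a log2 fold change of -0.51 ± 0.13 and Vim at -0.11 ± 0.04 (SE, n = 3 per group; limma adjusted p = 0.213 and 0.334), and their part in the HOX values was not tested.

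Because the neighbours Hoxa6 and Hoxa7 both had lower means in knockdown, while Hoxa11 of the same cluster and Hoxd10 had higher ones, the 250 bases before the annotated start of each are shown. They are RefSeq sequences of GRCr8, which held such a window for 11 of the 20 genes. The array was designed on rn4, so the positions are those of the annotation and not of the probes. The windows lie at chr4:82639464-82639713, chr4:82648242-82648491 and chr4:82676802-82677051 on the minus strand and at chr3:80001697-80001946 on the plus strand. Capitals mark CCAAT, or its reverse complement ATTGG.
Hoxa6: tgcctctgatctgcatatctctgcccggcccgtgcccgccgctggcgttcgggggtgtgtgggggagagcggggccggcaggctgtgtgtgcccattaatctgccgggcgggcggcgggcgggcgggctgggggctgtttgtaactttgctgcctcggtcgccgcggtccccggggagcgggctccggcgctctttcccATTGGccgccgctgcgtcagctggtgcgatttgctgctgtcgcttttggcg
Hoxa7: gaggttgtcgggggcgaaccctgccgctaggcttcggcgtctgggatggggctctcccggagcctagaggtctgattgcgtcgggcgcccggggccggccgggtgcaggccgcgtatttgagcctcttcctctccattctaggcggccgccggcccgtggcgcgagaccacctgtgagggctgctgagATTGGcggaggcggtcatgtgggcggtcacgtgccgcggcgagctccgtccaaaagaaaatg
Hoxa11: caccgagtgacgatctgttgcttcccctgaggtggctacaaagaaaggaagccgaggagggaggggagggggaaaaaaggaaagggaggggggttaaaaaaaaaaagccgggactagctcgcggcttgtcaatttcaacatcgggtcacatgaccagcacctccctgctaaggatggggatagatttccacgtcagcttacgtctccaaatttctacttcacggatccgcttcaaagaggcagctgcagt
Hoxd10: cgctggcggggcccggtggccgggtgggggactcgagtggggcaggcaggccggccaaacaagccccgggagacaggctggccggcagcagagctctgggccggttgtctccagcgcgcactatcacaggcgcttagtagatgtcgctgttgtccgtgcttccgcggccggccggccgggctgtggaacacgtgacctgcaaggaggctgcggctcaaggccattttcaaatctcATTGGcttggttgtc
Hoxa6 and Hoxa7 each held 28 CG dinucleotides in this window, Hoxd10 held 21 and Hoxa11 held 11, against a median of 5.0 over 33469 windows of the same length. A CCAAT match on either strand was present in the windows of Hoxa6, Hoxa7 and Hoxd10 and not in that of Hoxa11; 34.0% of all windows and 8 of the 11 HOX windows had one. Neither TATAAA (12.9% of windows) nor the joint PBX and HOX motif TGATNNAT (7.96%), each searched on both strands, was found in these 4 windows. Hoxc4, which also had a lower mean in knockdown, had a window that is not shown. It held 3 CG dinucleotides and no CCAAT match on either strand. The matches describe the letters of these windows only.

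The first question was which HOX genes could be measured. Of all 26913 features on the array, 17941 were well above background on all 6 arrays. Of the 20 HOX genes, 15 had a probe that was. In cluster A these were Hoxa2, Hoxa6, Hoxa7 and Hoxa11, 4 of 5. In cluster B they were Hoxb3, Hoxb4, Hoxb7 and Hoxb8, 4 of 6. All 3 genes of cluster C passed (Hoxc4, Hoxc5 and Hoxc12), and so did 4 of 6 in cluster D (Hoxd4, Hoxd9, Hoxd12 and Hoxd13). Members from the head-side, middle and tail-side ends of the clusters were thus measured together: 5 of 7 genes numbered 1 to 4, 5 of 5 numbered 5 to 8 and 5 of 8 numbered 9 to 13.

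Another 3 genes were well above background on 5 of the 6 arrays, among them Hoxd10 on all but control 2 and Hoxd1 on all but control 1. Hoxb9 and Hoxb13, the most tail-side genes of cluster B on this array, were not well above background on any. Hoxb13 is otherwise known from the tail end of the trunk and the prostate. Its log2 signal relative to the array's 75th percentile was -9.21, -9.14 and -9.42 in controls 1, 2 and 3 against -9.44, -9.34 and -9.05 in knockdown 1, 2 and 3. Hoxb9 had -9.17, -9.15 and -8.34 in controls against -8.45, -9.33 and -9.06 in knockdown, the higher values being control 3 and knockdown 1, which share slide 2. No fold is given for these genes, since neither group gave a measured level.

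**Figure D1:**
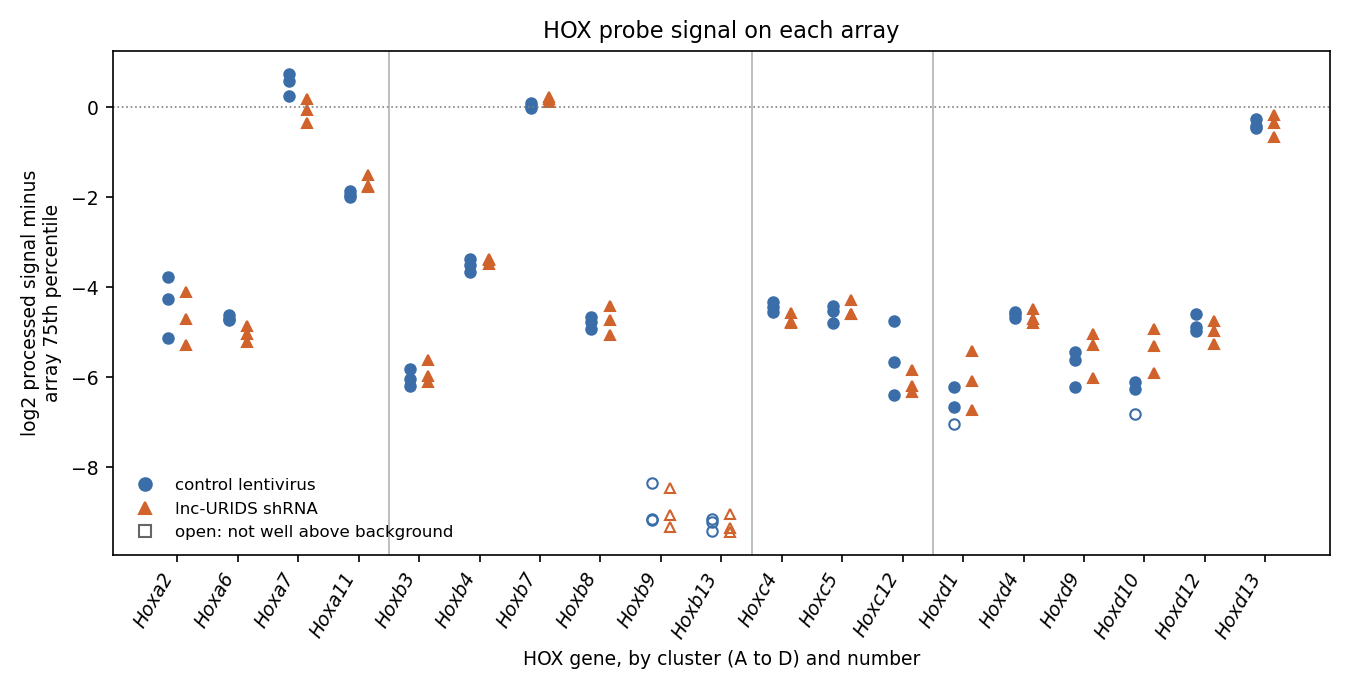
Log2 signal relative to the array's 75th percentile for each HOX gene reported singly, by cluster and number, with 1 point per array (3 control lentivirus, 3 lnc-URIDS shRNA; open points were not well above background). Hoxb9 and Hoxb13 stay below -8 on all arrays, and the groups of Hoxa6, Hoxa7, Hoxa11, Hoxb7, Hoxc4 and Hoxd10 do not overlap; heights of different genes come from different probes and are not comparable.

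The second question was whether HOX signal differed between knockdown and control. None of the 18 tested HOX genes passed limma's test at an adjusted p under 0.05, and neither did any of the 18461 features fitted together (0.00% called). At an unadjusted p under 0.05 there were 6 HOX genes (33.3%), beside 14.2% of all features, with 3 higher and 3 lower in knockdown (5.91% and 8.26% of all features). The same 6 genes were those whose groups of 3 arrays did not overlap, as in 21.7% of all features. The 3 genes well above background on 5 of the 6 arrays, Hoxd1 and Hoxd10 among them, entered through their knockdown arrays alone. Over the 15 genes well above background on all 6 arrays, 5 (33.3%) had an unadjusted p under 0.05. With that filter, 14.4% of all features had such a p. The means were higher in knockdown for 9 genes and lower for 9 (47.2% and 52.8% of all features), and the median log2 fold change, knockdown minus control, was 0.02 beside -0.01 over all features. In these bulk samples, a difference in the number of cells with a transcript and one in its amount per cell cannot be told apart.

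Of the tail-side genes, Hoxd10 had the widest gap. This gene patterns the lower spine and the limb. Its log2 signal was -6.27, -6.82 and -6.11 in controls 1, 2 and 3 against -5.90, -4.93 and -5.30 in knockdown 1, 2 and 3. All knockdown arrays lay above all control arrays, with knockdown 1 close to control 3. Control 2 was not well above background, and the gene was tested only because its knockdown arrays were, so its fold and interval describe a member that entered through the group in which it is high. The log2 fold change was 1.02 ± 0.30 (SE, n = 3 per group), a 2.03-fold difference with a 95% confidence interval from 1.22 to 3.39 (limma adjusted p = 0.240). Within slide 1, which holds controls 1 and 2 and knockdown 2 and 3, it was 1.43, and within slide 2, with 1 array per group, 0.21. A normexp background with an offset of 50 gave 0.59, and 0.29 with quantile scaling. The processed signal of Hoxd10 ran from 14.2 units in control 2 to 49.7 in knockdown 2, below this offset. The median log2 fold change of the tested HOX genes was 0.02 as reported, 0.18 with the first of these normexp settings and 0.03 with the second. The cause of these shifts was not tested.

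Hoxa11, which helps to pattern the forearm, lower leg and uterus, had log2 signals of -2.00, -1.85 and -1.94 in controls 1, 2 and 3. The knockdown arrays had -1.76, -1.49 and -1.75. The groups were apart, by less than 0.1 between control 2 and knockdown 1. Its log2 fold change was 0.26 ± 0.09 (SE, n = 3 per group; 1.20-fold, limma adjusted p = 0.283), with 0.31 within slide 1 and 0.18 within slide 2.

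Hoxa7 and its neighbour Hoxa6, genes of the trunk, had lower means in knockdown. Hoxa7 had 0.25, 0.75 and 0.59 in controls 1, 2 and 3 against 0.18, -0.35 and -0.07 in knockdown. Control 1 and knockdown 1 were close to each other, and the others were further apart. The Hoxa7 log2 fold change was -0.60 ± 0.18 (SE, n = 3 per group), or 0.658-fold with an interval from 0.483 to 0.896 (limma adjusted p = 0.245); it was -0.70 within slide 1 and -0.41 within slide 2. Hoxa6 had -4.70, -4.62 and -4.73 in controls against -4.86, -5.22 and -5.05 in knockdown, a narrow control group beside a wider and lower knockdown group. Its log2 fold change was -0.36 ± 0.10 (SE, n = 3 per group; 0.779-fold, limma adjusted p = 0.226), with -0.47 within slide 1 and -0.13 within slide 2. The Hoxa6 sign turned with a normexp background at the 75th percentile (0.04) but not with quantile scaling added (-0.17).

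Hoxb7, the paralog of Hoxa7 in cluster B, was nearly level across arrays: 0.09, -0.01 and 0.03 in controls against 0.24, 0.13 and 0.19 in knockdown. The groups were apart by a few hundredths. Its log2 fold change was 0.15 ± 0.05 (SE, n = 3 per group; 1.11-fold, limma adjusted p = 0.313), with 0.12 within slide 1 and 0.20 within slide 2. Hoxc4, a gene of the neck and upper trunk, had -4.44, -4.33 and -4.54 in controls against -4.56, -4.77 and -4.79 in knockdown. Control 3 and knockdown 1, both on slide 2, were nearly equal. The Hoxc4 log2 fold change was -0.27 ± 0.09 (SE, n = 3 per group; 0.830-fold, limma adjusted p = 0.270); it was -0.39 within slide 1 and -0.02 within slide 2, and its sign turned with a normexp background (0.07) but not with quantile scaling added (-0.14).

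**Figure D2:**
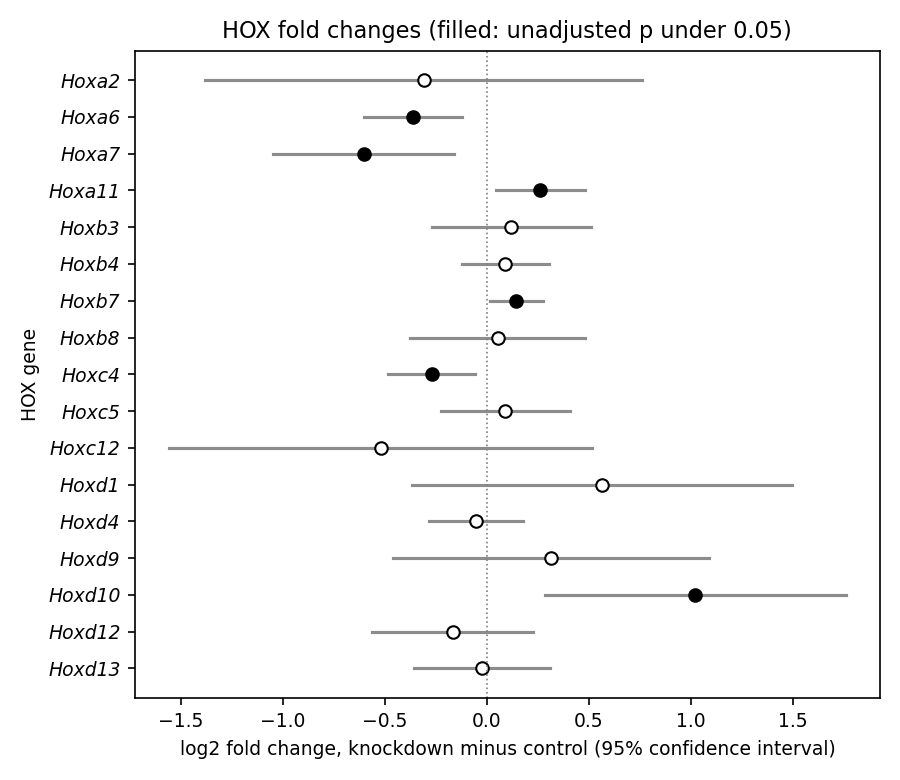
Log2 fold change of the 17 tested HOX genes reported singly, knockdown minus control, with the 95% confidence interval from limma (n = 3 arrays per group); filled points had an unadjusted p under 0.05. Hoxd10 (1.02), Hoxa11 (0.26) and Hoxb7 (0.15) lie to the right of 0 and Hoxa7 (-0.60), Hoxa6 (-0.36) and Hoxc4 (-0.27) to the left, and none passed after adjustment.

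The other 12 tested genes had overlapping groups and limma adjusted p-values from 0.574 to 0.973. Hoxd13, which shapes the fingers and toes, had -0.46, -0.26 and -0.41 in controls against -0.67, -0.17 and -0.36 in knockdown. Its log2 fold change was -0.02 ± 0.13 (SE, n = 3 per group), and its interval ran from 0.781-fold to 1.24-fold; median centring and 4 other settings turned its sign. Hoxb4, known from blood stem cells, had -3.36, -3.66 and -3.51 in controls against -3.37, -3.49 and -3.40 in knockdown, with a log2 fold change of 0.09 ± 0.09. Its interval, 0.919-fold to 1.23-fold, was the narrowest among these 12 beside that of Hoxd4 (0.822-fold to 1.13-fold), whose fold change was -0.05 ± 0.09 and turned sign under both normexp settings and without knockdown 2.

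Some members had wide intervals. Hoxc12 was highest in control 1, with -4.74 against -6.40 and -5.66 in controls 2 and 3, and the knockdown arrays had -5.84, -6.19 and -6.33; its fold change was -0.52 ± 0.42, with -0.091 without control 1 and -0.92 without control 2. Hoxa2, the patterning gene of the hindbrain and second pharyngeal arch, ranged from -5.12 to -3.77 in controls and from -5.27 to -4.10 in knockdown, with a fold change of -0.31 ± 0.43, which ran from -0.68 without control 1 to -0.0023 without control 2. The signs of Hoxa2, Hoxc12 and Hoxd12, like those of Hoxa6, Hoxc4 and Hoxd4, turned with the normexp background at the 75th percentile.

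The remaining members of cluster D had Hoxd1 at 0.56 ± 0.38, Hoxd9 at 0.32 ± 0.31 and Hoxd12 at -0.17 ± 0.16 (log2 fold changes with SE, n = 3 per group). Hoxd1 spread from -6.73 to -5.41 in knockdown. Hoxd9 differed by 0.67 within slide 1 and by -0.38 within slide 2. In clusters B and C, Hoxb3 had 0.12 ± 0.16 and Hoxb8 0.05 ± 0.17. Hoxc5 had 0.09 ± 0.13 on the probe that stands for the gene and 0.04 ± 0.11 on the second, both well above background on all 6 arrays and both with overlapping groups.

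Members that lie next to each other were set side by side. In 7 pairs of neighbouring HOX genes both were tested, and in 6 of them the means differed in the same direction; the exception was Hoxc4 (-0.27) with Hoxc5 (0.09). Beside Hoxa6 and Hoxa7, the pair Hoxd9 and Hoxd10 had 0.32 and 1.02. Most of these signs belong to differences within the error, and each pair shares its arrays, so the count is a description.

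Paralogs with the same number in different clusters encode the most similar HOX proteins. Each array measures both, so the difference between them within an array is not moved by a shift of a whole array, such as the 75th percentile or the median. The Hoxa7 minus Hoxb7 difference was lower in knockdown by 0.75 (log2 -0.75; the control arrays lay from -0.34 to 0.27 around their mean and the knockdown arrays from -0.96 to -0.55 on that scale). The groups did not overlap. The exact two-sided permutation test gave p = 0.1, the smallest that 3 against 3 arrays allow (0.3 after Benjamini-Hochberg adjustment over 6 pairs). The groups of Hoxa7 and of Hoxb7 were each already apart, in opposite directions. This outcome for their difference was therefore fixed beforehand and adds no further test. Hoxb4 minus Hoxc4 was higher in knockdown by 0.36, also with groups apart (exact p = 0.1, adjusted 0.3). Of the other 4 pairs, all overlapping, 3 are given: the Hoxb4 minus Hoxd4 means differed by 0.14, Hoxc4 minus Hoxd4 by -0.22 and Hoxc12 minus Hoxd12 by -0.35, with exact permutation p-values from 0.2 to 0.8. The Hoxc12 minus Hoxd12 value turned to 0.15 without control 1 and was -0.72 without control 2. The files hold no probe sequences, so reading of one paralog by the probe of another was not tested.

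**Figure D3:**
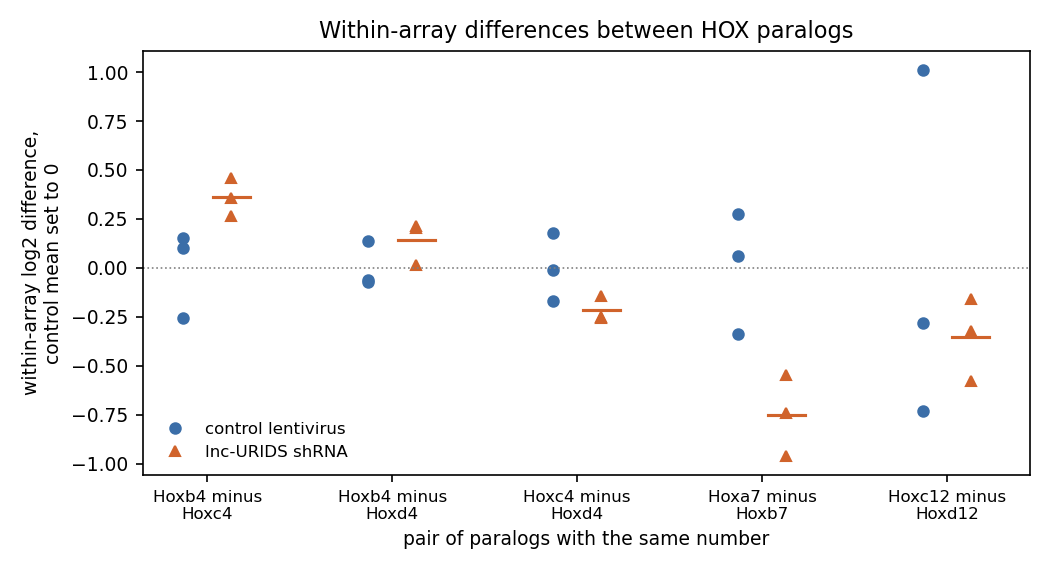
Within-array log2 difference between paralogs of the same number, with the mean of the control arrays set to 0 (points are single arrays, lines the mean of the 3 knockdown arrays). The groups are apart for Hoxa7 minus Hoxb7 (mean -0.75) and Hoxb4 minus Hoxc4 (0.36), and overlap in the other pairs drawn.

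The list of TALE homeodomain genes held the PBX, MEIS and PKNOX partners of the HOX proteins and also Tgif1 and Tgif2. A probe was present for 9 of its 11 genes, of which 8 were well above background on all 6 arrays. None of these 8 passed limma's test, 5 had higher and 3 lower means, and the median log2 fold change was 0.02. Tgif1 (0.05) and Tgif2 (0.20) were among the 5 with higher means, so these counts do not describe the partners alone. Of the 8 tested genes, 3 had a lower mean with an unadjusted p under 0.05, and 0 had a higher mean with such a p. Over all features these shares were 8.26% and 5.91%. Meis3 had -0.20 ± 0.08 and Pknox1 -0.11 ± 0.04 (SE, n = 3 per group; limma adjusted p = 0.337 and 0.350); the Pknox1 sign turned with a normexp background (0.05). Meis1 and Pbx3, both well above background on all arrays, had 0.01 ± 0.11 and 0.02 ± 0.04.

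Among the genes that set up and keep the HOX pattern, Cdx2 and Cdx4, which start it in the embryo, were on no array well above background. Polycomb and Trithorax genes, with Ctcf and Rarg, made up the 18 tested genes of this list, all well above background on all 6 arrays; 10 had higher and 8 lower means, the median was 0.02, and none passed. The Polycomb gene Bmi1 was the 1 gene of the 18 with an unadjusted p under 0.05, beside 14.2% of all features, at -0.12 ± 0.05 (SE, n = 3 per group; limma adjusted p = 0.344). Ezh2, the Polycomb enzyme that methylates histone H3, had 0.07 ± 0.05.

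Other genes known to mark position along the body were also measured. Of the limb and trunk genes with a probe, 10 of 15 were well above background on all 6 arrays, beside 17941 of all 26913 features. Among them were Pitx1, which specifies the hindlimb, and Tbx18, while Tbx4, Hand2 and Lhx9 were not well above background on any. The 10 tested genes split 5 to 5 around a median of -0.01, and none passed. Emx2, which patterns the shoulder blade and urogenital tract, was the 1 gene of the 10 with an unadjusted p under 0.05, beside 14.2% of all features. Its log2 signals were -4.67, -3.72 and -4.08 in controls against -5.07, -4.53 and -5.06 in knockdown, and the groups overlapped through control 1. The Emx2 fold change was -0.73 ± 0.28 (SE, n = 3 per group; 0.603-fold, limma adjusted p = 0.332, and -0.10 at the weakest over all alternatives). Pitx1 had 0.02 ± 0.15, with 0.31, -0.17 and 0.19 in controls against 0.34, 0.07 and -0.02 in knockdown.

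Head and neural crest genes were measured beside the trunk genes. Of those with a probe, 9 of 14 were well above background on all 6 arrays, beside 17941 of all 26913 features. Alx1 and Pax3 were among the 9, while Otx2 and Pax7 were not well above background on any array. None of the 9 had an unadjusted p under 0.05; 4 had higher and 5 lower means, with a median of -0.02. Pax3, of neural crest and muscle precursors, had overlapping groups and a log2 fold change of -0.08 ± 0.12.

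The 6 HOX genes with an unadjusted p under 0.05 were followed through 18 other ways of processing the data. Hoxa7 stayed between -0.74 and -0.47, Hoxa11 between 0.18 and 0.31 and Hoxb7 between 0.12 and 0.17. Hoxd10 ranged from 0.29 to 1.43. Over these alternatives 0 of the 18 HOX genes passed limma's test; the smallest adjusted p was 0.0562, for Hoxa7 with array quality weights, under which 739 of all features passed. With the normexp background at the 75th percentile, 2 of 18 HOX genes (Hoxa7 and Hoxa11) had an unadjusted p under 0.05, beside 7.11% of all features. With array quality weights 6 of 18 did, beside 28.1% of all features. Without control 1 there were 4, beside 17.6%, without control 2 also 4, beside 10.9%, and without control 3 also 4, beside 8.91%. Leaving out knockdown 1 gave 5, beside 16.6%, knockdown 2 gave 6, beside 9.12%, and knockdown 3 gave 4, beside 8.02%.

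**Figure D4:**
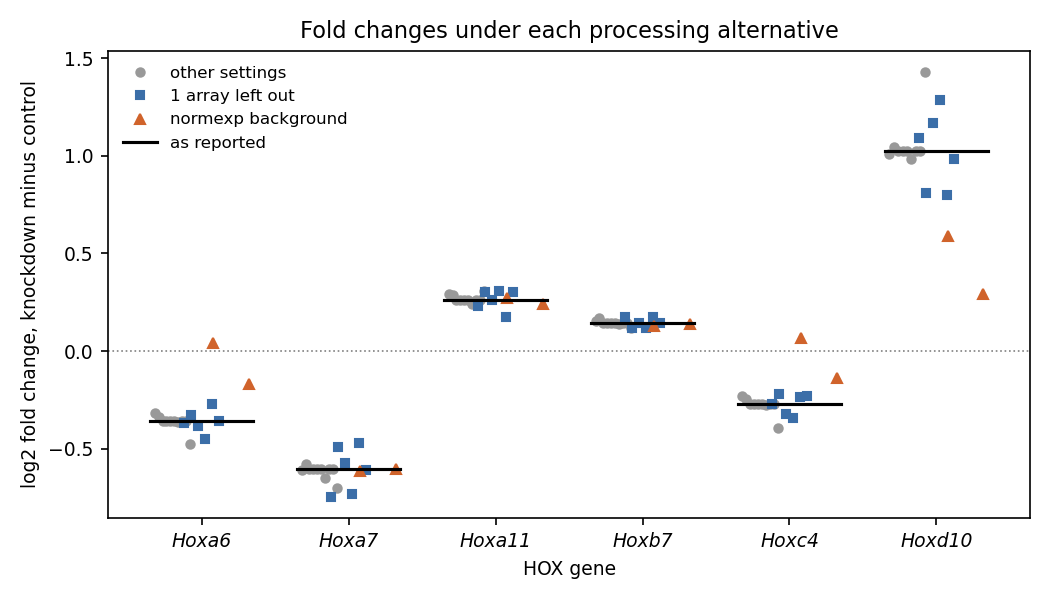
Log2 fold change, knockdown minus control, of 6 HOX genes as reported (black line) and under 18 alternatives (17 for Hoxd10): a normexp background (triangles), 1 array left out (squares) and other settings (circles). Hoxa7, Hoxa11 and Hoxb7 keep close to the line, Hoxd10 falls to 0.29, and Hoxa6 and Hoxc4 cross 0 in 1 setting each.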

How the data were processed

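Total RNA of 6 samples, 3 per lentivirus as their titles give it, was hybridised to Agilent one-colour rat arrays, per the labels' protocols. The authors deposited scanner output with linear intensity per spot, background-subtracted, spatially detrended and floored by Feature Extraction and not normalized between arrays. The software version was 11.0.1.1 in the file headers, and the submitters' processing notes give 11.0.0.1. The spot flags are those software calls.

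Control spots and 386 to 513 outlier spots per array were left out. Each processed signal was divided by its array's 75th percentile over gene spots (1493 to 1609 units) and put on the log2 scale, with spots of a probe averaged. A probe was tested where 1 group had it well above background throughout (20773 probes). Names came from RefSeq accessions with a table of GRCr8, used for names, neighbours and promoter sequence only, since the array was designed on rn4; 18005 probes matched. The brightest probe stood for a gene, which gave 18461 features. The test was limma's moderated test (3.58.1, under R 4.3.3; Benjamini-Hochberg threshold 0.05) in 1 fit over all features; second probes came from a fit over all tested probes. Samples were compared for identical values, and no such arrays were found. Slides follow the scan identifiers of the file headers. Precision is limited by the number of arrays.

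The members, lists and tests were chosen with earlier results of these data known. All HOX genes are named except where a result is not reported here, which holds for a few genes; they stay in the fit and the counts. In other lists, the text names at most 3 members with an unadjusted p under 0.05, those that differ most, or else that of smallest p, plus a few well-known members chosen after values were seen. The alternatives were quantile or median scaling, normexp on the median spot intensity (offset 50), no or a stricter filter, averaging the probes of each gene, a variance trend on intensity, array weights, outlier spots kept (for detection only), replicate and slide blocks, and leaving out each array. Slide 1 alone and the paralog differences were added after seeing the data.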

Additional observations from a re-analysis of the deposited data

How the results depend on the processing

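The number of HOX genes well above background on all arrays was 15, and 18 when 1 group sufficed; it was 15 with outlier spots kept and 15 to 17 with 1 array left out. The count of HOX genes passing stayed at 0 under all 18 alternatives. Over all features, 0 passed as reported, 1 with median centring, 739 with array quality weights, and 0 to 3 with 1 array left out (2 without control 1, 3 without control 3, 2 without knockdown 1 and 1 without knockdown 3). The median HOX fold change was 0.18 with a normexp background at the 75th percentile (0.05 over all features), -0.02 with no filter or the filter on all 6 arrays, and -0.02 to 0.07 with 1 array left out.

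Signs turned for 10 of the 17 HOX genes reported singly, in 24 of 304 values over the alternatives, and the cause was not tested. Normexp at the 75th percentile gave Hoxa2 0.048, Hoxa6 0.043, Hoxc12 0.11, Hoxc4 0.067, Hoxd12 0.18, Hoxd4 0.22 and Pknox1 0.052, and with quantile scaling Hoxd4 0.024. Centring on the median gave Hoxd13 0.00095. Array weights gave Hoxa2 0.016, Hoxb8 -0.047, Hoxc5 -0.010 and Hoxd13 0.052. Slide 1 alone gave Hoxa2 0.040, Hoxb3 -0.029, Hoxb8 -0.038 and Hoxd13 0.093. With 1 array left out, the log2 fold changes that turned ran for Hoxb3 from -0.023 to 0.22, Hoxb8 from -0.11 to 0.22, Hoxc5 from -0.011 to 0.17, Hoxd13 from -0.14 to 0.11 and Hoxd4 from -0.14 to 0.017. The arrays whose loss turned them were control 2 (Hoxb8, Hoxc5 and Hoxd13), knockdown 1 (Hoxb3, Hoxb8, Hoxc5 and Hoxd13) and knockdown 2 (Hoxd4).

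The deviations of same-numbered arrays from their group mean correlated at 0.10, 0.26 and -0.29 over 18461 features. Control 3 correlated best with knockdown 1 (0.44), both on slide 2. Deviations from a mean of 3 arrays depend on each other, so these values cannot tell whether the replicate numbers pair the arrays. With the replicate block, 0 HOX genes and 0 features passed, and the median HOX fold change was 0.02. A slide block also gave 0 HOX genes. Dim probes limit what can be read of Hoxd1 and Hoxd10, and Hoxb9 and Hoxb13 have only an upper bound.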
